A study of Mus musculus with 6 samples.

Results

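Transcripts found mainly in control library 3 are the genes whose RNA was present in 1 of 3 control libraries and scarce or uncounted in the other libraries of the study. They were chosen from their read counts. A gene entered the set when it had 1 CPM or more in control 3 (its count divided by the sum of all counts of the library and scaled by 1e6) and at least 4 times the highest CPM among the other 5 libraries. The rule found 616 genes among 30768 in the deposited table. Of the 14320 genes with 1 CPM or more in control 3, 4.30% met it. Because these same values chose the genes, their levels are given as a description and without a test.

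The study sequenced polyadenylated RNA of bEnd.3 cells, a mouse line of endothelial cells from brain vessels. The miR-423-5p group holds 3 libraries of cells that overexpressed this microRNA from a mimic, and the control group holds 3 libraries of cells with a negative control mimic. All 6 libraries come from the same line and were prepared by the same protocol, and the labels name no other agent, genotype or time. Whether the 3 libraries of each group are separate cultures is not stated, so p-values measure the spread between libraries, which may be technical.

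Endothelial cells line blood vessels. Macrophages are tissue phagocytes that arise from blood monocytes or from embryonic precursors. They take up particles through scavenger, lectin and Fc receptors, digest them in lysosomes and kill microbes with the oxidase that makes superoxide. Neurons are known for a cytoskeleton of neuron-specific tubulin and microtubule-associated proteins, for vesicles that release transmitter, and for the receptors and channels that receive it, while astrocytes take up glutamate around them.

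Genes of leukocytes and of neural cells were the largest listed groups. Of 251 genes in the table from 23 lists of leukocyte markers and functions, 88 (35.1%) belonged to the set. Of 242 genes from 16 lists of neuronal and glial markers and functions, 80 (33.1%) did, against 2.00% of all genes of the table. The leukocyte lists are those of macrophages, microglia, neutrophils, osteoclasts, mast cells, dendritic cells, B, T and NK cells and 14 functions, and the neural ones those of neurons and their transmitter classes, neuroendocrine cells and 3 kinds of glia and 8 functions. Together they hold 168 (27.3%) of the 616 genes. Markers of lymphocytes, red cells, skeletal and smooth muscle, cartilage, fat and germ cells contributed none. None of 19 endothelial marker genes in the table did either. The skeletal muscle list still summed to 187 CPM in control 3 and 267 CPM in miR-423-5p 3, against 4.04 to 5.47 CPM elsewhere. Genes high in both of these libraries fall outside the rule. The lists were written with earlier results of these data known, so the counts describe the set and do not test it.

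**Figure D1:**
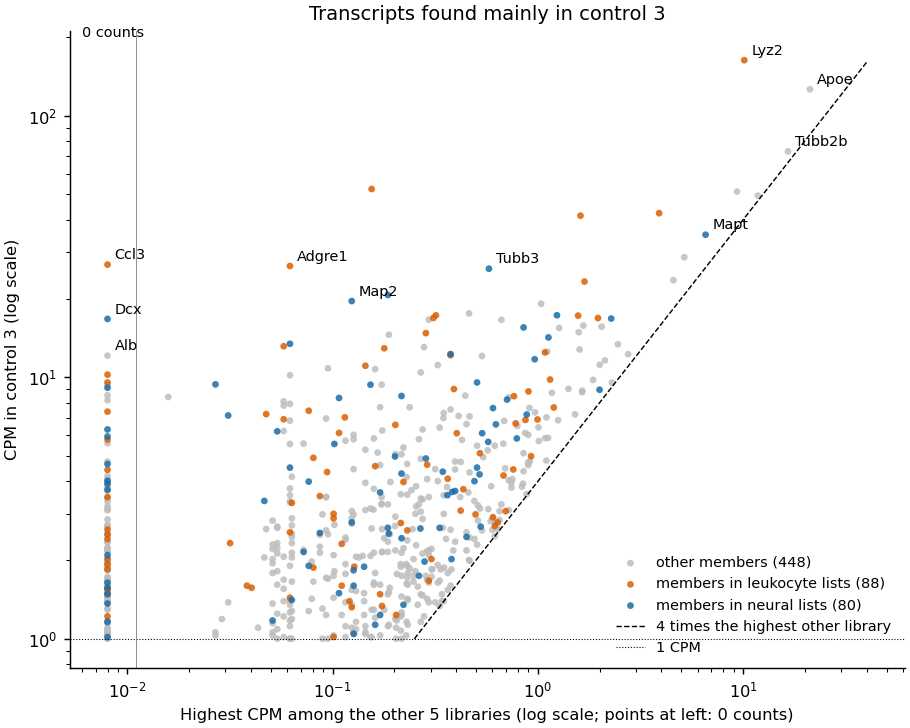
Each point is 1 of the 616 genes, with its CPM in control 3 on the vertical axis and the highest CPM among the other 5 libraries on the horizontal axis, both on log scales. Points at the far left had 0 counts in those 5 libraries (104 genes), and colours mark the 88 genes on leukocyte lists and the 80 on neural lists.

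As a group, the 616 genes summed to 3175 CPM in control 3, against 150, 151 and 161 CPM in miR-423-5p 1, 2 and 3 and 181 and 190 CPM in controls 1 and 2. Control 3 stood 19.0 times above the mean of the other 5 libraries, which lay close together. In shares of all counts, the set took 0.318% of control 3 (95% Wilson interval 0.316% to 0.319%) and 0.0150% to 0.0190% of the other libraries. These intervals cover counting error only. In bulk RNA, more cells of a type and more RNA per cell cannot be told apart.

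Other libraries held almost nothing of this kind. With the same rule, miR-423-5p 1, 2 and 3 had 0, 4 and 7 genes to themselves, and controls 1 and 2 had 3 and 4. In the opposite direction, 12 genes with 1 CPM or more in all of the other libraries were at least 4 times lower in control 3. The excess in control 3 also continued below the limit of the rule: 239 genes with 1 CPM or more in control 3 were 2 to 4 times above the highest other library, against 5, 6 and 55 such genes in miR-423-5p 1, 2 and 3 and 11 and 9 in controls 1 and 2.

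Within the set, most genes were low. In control 3, 220 genes had under 2 CPM, 337 had 2 to 10 CPM and 59 had 10 CPM or more, with a median of 2.64 CPM and counts of 69 to 11223. The 10 highest genes held 20.9% of the summed level. In the other 5 libraries 104 genes had 0 counts, which at totals of 63217696 to 78456344 counts allows up to 3 counts or 0.0382 to 0.0475 CPM per library, for counting error only. A further 15 had at most 1 to 3 counts in any of the other libraries. The remaining 497 exceeded 3 counts in at least 1 of them, and their ratio to the highest other library had a median of 11.3 (quartiles 6.62 and 23.1). Only 45 of the 616 reached 1 CPM outside control 3.

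Just inside the level of 1 CPM stood the signalling adaptor gene Stap1, the platelet chemokine gene Ppbp and Plppr5, at 1.002 CPM each in control 3. Just outside stood Chga, which encodes the chromogranin of secretory granules, Gpr37l1 and Phactr3, at 0.987 CPM each. For the ratio, Limch1 (4.001), the Y-linked helicase gene Ddx3y (4.01) and Hdgfl3 (4.05) were just inside, and the neuronal ubiquitin hydrolase gene Uchl1 (3.96), the chemokine gene Cxcl14 (3.94) and Slain1 (3.94) just outside.

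Labelled cell identity was visible in every library. The endothelial cadherin gene Cdh5 had 836 CPM in control 3, against 1015, 1218 and 1009 CPM in miR-423-5p 1, 2 and 3 and 855 and 799 CPM in controls 1 and 2. The adhesion molecule gene Pecam1 had 517 CPM in control 3, against 942, 1070 and 956 CPM in the miR-423-5p libraries and 592 and 519 CPM in controls 1 and 2. For both genes, control 3 stood near controls 1 and 2 and below the miR-423-5p libraries. Of the 19 endothelial markers, 16 had 1 CPM or more in control 3, while the tight junction gene Cldn5 had 0.174 CPM and the transcription factor gene Sox17 had 0 counts there.

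**Figure D2:**
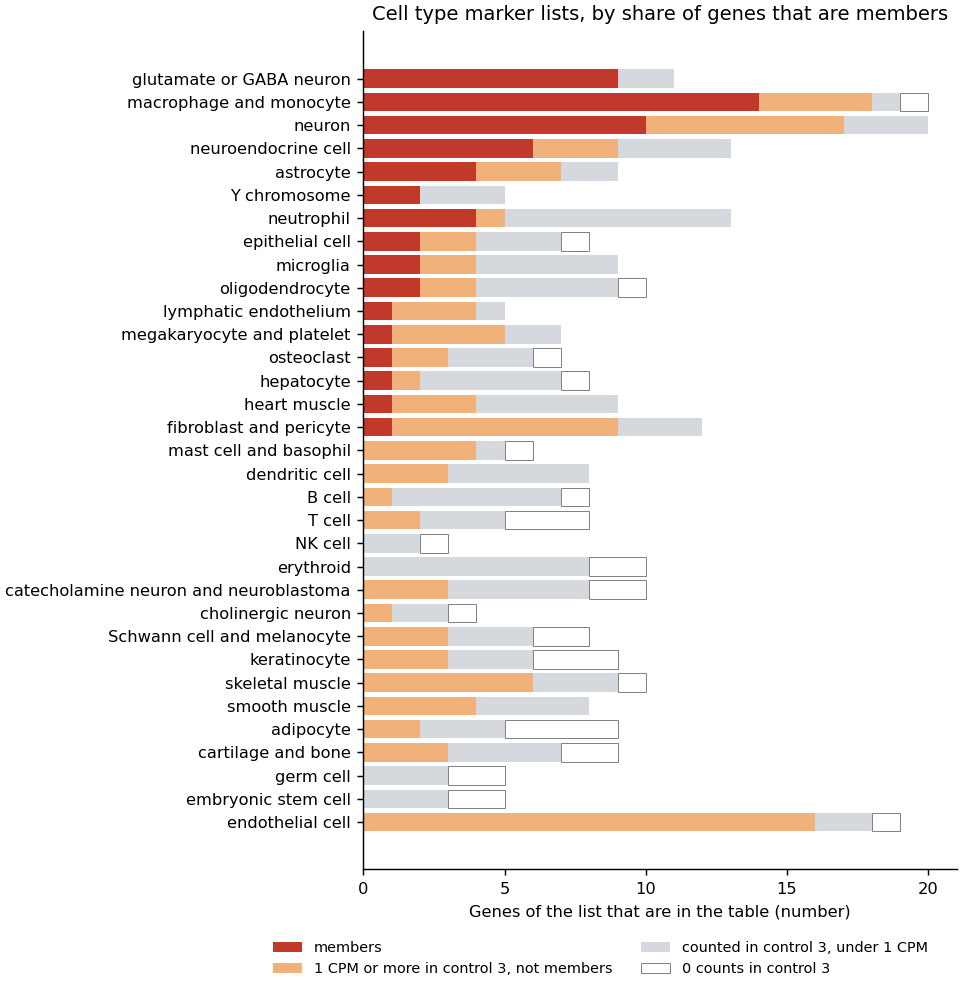
Horizontal bars give, for each of 33 cell type marker lists, how many of its genes in the table belong to the set (red), had 1 CPM or more in control 3 without belonging (orange), were counted below 1 CPM there (grey) or had 0 counts there (white). Lists are ordered by the share of genes in the set as chosen on CPM: glutamate or GABA neuron (9 of 11), macrophage and monocyte (14 of 20) and neuron (10 of 20) lead, and endothelial cell stands at 0 of 19.

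Sequences of 4 promoters are shown, from the macrophage and the neuronal sides of the set. These promoters were picked because each holds a motif from those searched, so they do not show how common a motif is. They are RefSeq promoters on GRCm38.p6, from 250 bases before the start site to 50 after it, written 5′ to 3′ in the direction of the gene. For Ctss and C1qc, capitals mark GAGGAAGT, the motif of the PU.1 type, which both carry in reverse complement. For Syn1 and Scg2, capitals mark TTCAGCACC, a piece of the REST element, which Scg2 carries in reverse complement.
Ctss, chr3:95526536-95526835 (+ strand): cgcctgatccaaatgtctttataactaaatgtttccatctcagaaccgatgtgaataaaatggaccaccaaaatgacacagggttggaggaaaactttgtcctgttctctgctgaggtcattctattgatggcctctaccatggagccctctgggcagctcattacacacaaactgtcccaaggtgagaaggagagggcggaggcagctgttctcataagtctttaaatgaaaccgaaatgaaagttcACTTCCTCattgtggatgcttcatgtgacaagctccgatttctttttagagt
C1qc, chr4:136892865-136893164 (- strand): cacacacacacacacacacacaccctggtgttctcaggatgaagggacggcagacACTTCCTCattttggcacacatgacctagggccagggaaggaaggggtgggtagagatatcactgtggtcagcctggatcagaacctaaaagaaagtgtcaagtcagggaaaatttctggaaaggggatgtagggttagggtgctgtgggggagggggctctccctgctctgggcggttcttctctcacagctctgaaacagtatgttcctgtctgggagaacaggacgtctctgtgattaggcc
Syn1, chrX:20920869-20921168 (- strand): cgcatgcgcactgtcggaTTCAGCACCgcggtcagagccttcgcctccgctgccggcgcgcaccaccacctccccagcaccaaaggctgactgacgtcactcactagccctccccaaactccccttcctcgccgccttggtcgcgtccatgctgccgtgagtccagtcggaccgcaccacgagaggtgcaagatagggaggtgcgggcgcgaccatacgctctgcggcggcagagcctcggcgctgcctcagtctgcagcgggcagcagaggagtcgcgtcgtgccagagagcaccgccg
Scg2, chr1:79439977-79440276 (- strand): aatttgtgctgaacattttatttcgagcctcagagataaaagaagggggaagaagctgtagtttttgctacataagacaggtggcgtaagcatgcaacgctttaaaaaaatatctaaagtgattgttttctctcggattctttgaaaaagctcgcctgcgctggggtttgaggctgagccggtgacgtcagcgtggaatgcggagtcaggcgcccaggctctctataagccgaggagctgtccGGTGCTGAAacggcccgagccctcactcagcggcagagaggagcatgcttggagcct

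Motif matches were counted on both strands in 456 of the 616 genes that have a promoter in the table and in 15959 promoters of all genes. GAGGAAGT was found in 5.04% of promoters of the set, in 8 of 66 (12.1%) of genes on leukocyte lists and in 0 of 53 on neural lists, against 3.20% of all promoters. The 8 were Ctss, Ctsc, C1qc, Pirb, Vav1, Fcgr4, Tlr1 and Mmp12. TTCAGCACC was found in 7 of 456 (1.54%), in 2 of 53 on neural lists (3.77%) and in 0 of 66 on leukocyte lists, against 0.414% of all promoters. Those 7 were Syn1, Scg2, Dner, Ptprn2, Grm2, Mdga1 and Cd84. The TATA box TATAAA was found in 24.2% of the leukocyte-list promoters, in 11.3% of the neural-list ones and in 9.88% of all, and the GC box GGGCGG in 25.8%, 54.7% and 52.8%. GC content differed between these sets, with medians of 48.3% for leukocyte lists, 60% for neural lists and 58.3% for all promoters. Further motifs were searched. The AP-1 motif TGANTCA and the GATA-type motif AGATAA were each also in 8 of 66 leukocyte-list promoters, against 6.49% and 8.21% of all. The CRE motif TGACGTCA was in 7.55% of neural-list promoters, against 2.58% of all. The ETS motif CCGGAAGT was in 1.32% of promoters of the set, against 6.08% of all. The matches are a description of these windows and say nothing about binding.

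Macrophage markers led the leukocyte side. Of 20 macrophage and monocyte markers in the table, 14 belonged to the set. The lysozyme gene Lyz2, whose enzyme cuts bacterial cell walls, was the highest of all 616, at 163 CPM in control 3, against 8.46, 8.48 and 10.1 CPM in miR-423-5p 1, 2 and 3 and 4.20 and 3.57 CPM in controls 1 and 2. Adgre1, which encodes the F4/80 antigen, had 26.6 CPM in control 3, against 0 counts in all 3 miR-423-5p libraries and in control 2 and 0.0620 CPM in control 1. Thus Lyz2 was counted in all 6 libraries and Adgre1 nearly in control 3 alone.

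Csf1r, the receptor on which macrophages depend for survival, had 23.2 CPM in control 3, against 0.994, 1.07 and 0.965 CPM in miR-423-5p 1, 2 and 3 and 1.69 and 0.953 CPM in controls 1 and 2. Mpeg1, which encodes the pore-forming perforin-2, had 42.4 CPM in control 3, against 0.967, 0.956 and 0.649 CPM in the miR-423-5p libraries and 2.54 and 3.90 CPM in controls 1 and 2. Itgam, the alpha chain of the CR3 integrin (CD11b), had 12.9 CPM in control 3, against 0.175, 0.178 and 0.111 CPM in the miR-423-5p libraries and 0 and 0.116 CPM in controls 1 and 2. Control 3 had 13.8, 10.9 and 72.3 times the highest other library for these 3 genes. Ms4a7, a membrane gene of macrophages, had 9.55 CPM in control 3 and 0 counts in the other 5, which is at least 201-fold higher when 3 counts are allowed to each library.

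The other macrophage markers in the set were Lpl (lipoprotein lipase), Msr1, Fcgr1, Cd14, Marco, Trem2, Cx3cr1 and Mrc1, at 1.34 to 41.5 CPM in control 3. The 6 list genes outside it differed among themselves. Cd68, a lysosomal glycoprotein, had 801 CPM in control 3, within the range of the miR-423-5p libraries (681 to 921 CPM) and above controls 1 and 2 (623 and 607 CPM). Mertk and Ly6c2 were likewise not above the highest other library. Clec4e was 13.5 CPM in control 3 against at most 3.81 CPM elsewhere, just short of the ratio. Ccr2, the receptor of inflammatory monocytes, had 0.378 CPM in control 3 and 0 counts elsewhere, and Cd163, a haemoglobin scavenger receptor, had 0 counts in control 3.

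Phagocytic receptors were among the most complete functional groups. Of 14 C-type lectins and scavenger receptors, 10 belonged to the set. Marco, a scavenger receptor for bacteria, had 7.39 CPM in control 3 and 0 counts in the other 5 libraries. Clec7a, the beta-glucan receptor dectin-1, had 2.41 CPM in control 3. It too had 0 counts elsewhere, as did Clec4a2, Clec4a3 and Clec4n. Cd36, a receptor for lipids, differed from these: it had 6.90 CPM in control 3, against 0, 0 and 0.997 CPM in miR-423-5p 1, 2 and 3 and 0 counts in controls 1 and 2, so that 1 other library held it.

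Fc receptors and their adaptors, which bind antibody-coated particles, gave 7 of 12. The shared signalling chain Fcer1g had 16.9 CPM in control 3, against 0.242, 0.306 and 0.206 CPM in miR-423-5p 1, 2 and 3 and 0.310 and 0.159 CPM in controls 1 and 2. Tyrobp, the DAP12 adaptor used by Trem2, had 4.43 CPM in control 3 and 0 counts in the other 5 libraries. The remaining genes were Fcgr1, Pirb, Fcgr2b, Fcgr4 and Fcgr3, at 1.39 to 9.02 CPM. Lilrb4a and Lilr4b were well expressed in all libraries and outside the set.

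The phagocyte oxidase contributed 5 of 7 genes. Cybb, its catalytic subunit, had 17.2 CPM in control 3, against 0, 0.319 and 0 CPM in miR-423-5p 1, 2 and 3 and 0 and 0.0866 CPM in controls 1 and 2. The cytosolic subunits Ncf1 and Ncf4 and the GTPase Rac2 had 2.31 to 8.83 CPM. Cyba, the partner of Cybb that is made by many cell types, had 123 CPM in control 3 and up to 198 CPM elsewhere. The 2 genes outside the set were thus those with high levels in every library.

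Complement genes gave 5 of 10, all 3 chains of C1q among them. C1qb had 13.1 CPM in control 3 and 0 counts elsewhere except 0.0578 CPM in control 2. C1qc and C1qa, at 10.2 and 5.78 CPM in control 3, had 0 counts in the other 5 libraries. The anaphylatoxin receptor gene C3ar1 was counted throughout, at 16.8 CPM in control 3, against 1.91, 1.96 and 1.95 CPM in the miR-423-5p libraries and 1.83 and 1.63 CPM in controls 1 and 2. C3 itself, at 194 CPM, was outside the set.

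Secreted signals of macrophages were also present. Ccl3, a chemokine made by activated macrophages, had 26.9 CPM in control 3 and 0 counts in the other 5 libraries, at least 568-fold higher with 3 counts allowed. Per length it was the fourth highest of the set, at 33.9 FPKM, after Lyz2 at 119, Apoe at 56.8 and Ctss at 37.2 FPKM. Its neighbour in the same chemokine family, Ccl4, was counted in all libraries, at 21.7 CPM in control 3, against 4.89, 4.14 and 6.72 CPM in miR-423-5p 1, 2 and 3 and 20.03 and 18.1 CPM in controls 1 and 2.

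Among cytokines, 8 of 16 list genes belonged. Il1b had 6.13 CPM in control 3, against 0.107, 0.0510 and 0 CPM in miR-423-5p 1, 2 and 3 and 0 and 0.0578 CPM in controls 1 and 2. Tnf had 6.11 CPM in control 3, against 0, 0.255 and 0 CPM in the miR-423-5p libraries and 0.403 and 0.231 CPM in controls 1 and 2. Both are the classical inflammatory cytokines of activated macrophages. The other 6 were Il1rn, Il1a, Il10ra, Csf3r, Il10 and Il21r, at 1.23 to 12.4 CPM.

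Lysosomal and lipid genes followed, with 8 of 18. Cathepsin S (Ctss), a protease of antigen-presenting cells, had 52.4 CPM in control 3, against 0, 0.102 and 0.127 CPM in miR-423-5p 1, 2 and 3 and 0.155 and 0.0578 CPM in controls 1 and 2. That is 339 times the highest other library. Apoe, the lipid carrier made by macrophages and astrocytes, is not on this list. It was the second highest of the set, at 126 CPM in control 3. The miR-423-5p libraries had 16.7, 12.9 and 11.8 CPM of it, and controls 1 and 2 had 19.2 and 21.2 CPM. Gpnmb and Lgmn were among the listed genes that stayed outside the set.

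Signalling and control genes of leukocytes were less complete. Ptprc, the CD45 phosphatase carried by nearly all leukocytes, had 7.45 CPM in control 3, against 0.0537, 0.0765 and 0 CPM in miR-423-5p 1, 2 and 3 and 0 counts in controls 1 and 2. Syk, the kinase that Fc receptors and lectins signal through, had 6.91 CPM in control 3 and 0 counts elsewhere except 0.0578 CPM in control 2. Spi1, which encodes the macrophage transcription factor PU.1, had 5.13 CPM in control 3, against 0.215, 0.331 and 0.522 CPM in the miR-423-5p libraries and 0.449 and 0.347 CPM in controls 1 and 2. Of 18 transcription factors of blood cells, only Spi1, Irf5, Ikzf1 and Bcl11a belonged. Runx1 and Fli1, which endothelial cells also use, were outside the set. The 18 genes together summed to 160 CPM in control 3. They summed to 264, 277 and 220 CPM in miR-423-5p 1, 2 and 3 and to 302 and 316 CPM in controls 1 and 2.

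Clusters of related genes entered together. From the lists added after the values were seen, 6 of 11 genes of the Ms4a cluster, 5 of 9 of the SLAM family of leukocyte surface receptors and all 3 of the Bcl2a1 family belonged. Bcl2a1b, an inhibitor of cell death, had 3.11 CPM in control 3 and 0 counts in the other 5 libraries. The Bcl2a1, Ms4a, Fc receptor and Clec4 genes have near-identical copies, so reads may be split among them. Across the set, 81 genes (13.1%) lay within 100 kb of another gene of the set, against 8.66% of the other genes with 1 CPM or more in control 3.

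Lists of microglia, of other leukocytes and of red cells gave few genes or none. Of 9 microglial markers only C1qa and Fcrls belonged, and the resting microglia genes P2ry12 and P2ry13 had 0.232 CPM each in control 3, with 0 counts elsewhere. Of 13 neutrophil markers 4 belonged (Mmp9, S100a9, Csf3r and Ngp, at 1.60 to 2.99 CPM), while the granule enzymes Mpo and Elane had 0.116 and 0.102 CPM. Class II antigen display gave Cd40, Cd74, H2-Ab1 and H2-Aa, at 1.22 to 4.99 CPM. B cell, T cell, NK cell, dendritic cell, mast cell and erythroid lists gave 0 of 8, 0 of 8, 0 of 3, 0 of 8, 0 of 6 and 0 of 10.

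On the neural side, the genes spanned the cell body, axon and synapse. Of 20 general neuron markers 10 belonged. Tubb3, the neuronal beta tubulin, had 26.0 CPM in control 3, against 0.510, 0.535 and 0.127 CPM in miR-423-5p 1, 2 and 3 and 0.201 and 0.578 CPM in controls 1 and 2. Dcx, the doublecortin of migrating young neurons, had 16.7 CPM in control 3 and 0 counts in the other 5 libraries, at least 352-fold higher with 3 counts allowed. Map2, the microtubule protein of dendrites, had 19.6 CPM in control 3, against 0 counts in the miR-423-5p libraries and 0.124 and 0.101 CPM in controls 1 and 2.

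Cytoskeleton and axon growth gave 13 of 26. Mapt, which encodes tau, was counted in every library, at 35.1 CPM in control 3, against 5.69, 6.13 and 6.44 CPM in miR-423-5p 1, 2 and 3 and 6.57 and 4.98 CPM in controls 1 and 2. The axonal motor gene Kif1a had 20.6 CPM in control 3, against 0 counts in the miR-423-5p libraries and 0.186 and 0.173 CPM in controls 1 and 2. Stmn2, a tubulin-binding protein of growing axons, had 13.4 CPM in control 3 and 0 counts elsewhere except 0.0620 CPM in control 1. The neurofilament genes went their own way: Ina belonged, at 3.92 CPM and 0 counts elsewhere, but Nefl did not. Nefl had 41.2 CPM in control 3, near controls 1 and 2 (46.4 and 42.8 CPM). The miR-423-5p libraries had 114 to 142 CPM of it.

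Vesicle release gave 11 of 25. The SNARE gene Snap25 had 9.39 CPM in control 3 and 0 counts elsewhere except 0.0269 CPM in miR-423-5p 1. The calcium sensor gene Syt1 had 9.37 CPM in control 3, against 0.107, 0.153 and 0.0633 CPM in the miR-423-5p libraries and 0.0620 and 0 CPM in controls 1 and 2. Synaptophysin (Syp), a vesicle membrane protein, had 9.55 CPM in control 3 and an even 0.411 to 0.505 CPM in the other 5. Vamp2 and Cplx2, which are also used outside neurons, were at similar levels in all libraries.

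Glutamate and GABA neurons had the highest share of any cell type list, 9 of 11, when the set was chosen on CPM. Chosen on the deposited FPKM, 2 of the 11 belonged, against 11 of the macrophage and monocyte list and 10 of the neuron list. For glutamate, the vesicular transporter gene Slc17a7 had 7.20 CPM in control 3 and 0.722 to 0.883 CPM in the other 5 libraries. The AMPA receptor genes Gria1 and Gria2 had 6.32 and 5.94 CPM in control 3 and 0 counts elsewhere. For GABA, the synthetic enzyme gene Gad1 had 4.36 CPM in control 3 and 0.101 to 0.344 CPM in the other 5, and the vesicular transporter gene Slc32a1 had 1.36 CPM and 0 counts elsewhere. Outside the set were Slc17a6, the transporter typical of the brainstem and thalamus, at 0.261 CPM, and Gad2 at 0.944 CPM. Of the catecholamine and the cholinergic list, 0 of 10 and 0 of 4 belonged.

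Receptors, channels and adhesion molecules of neurons were represented throughout. Among 27 neurotransmitter receptors 9 belonged, led by the NMDA receptor gene Grin2b with 8.33 CPM in control 3, against 0.107, 0.0510 and 0 CPM in miR-423-5p 1, 2 and 3 and 0 counts in controls 1 and 2. All 9 were receptors for glutamate or GABA. Of 29 voltage-gated channels 11 belonged. Adhesion and synapse organisers gave 9 of 24, led by Ncam1 at 16.8 CPM in control 3 and 1.65 to 2.28 CPM in the other libraries. Ntrk2, the receptor for BDNF, had 9.12 CPM in control 3 and 0 counts in the other 5.

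Regulatory genes of the forebrain were counted as well. In a list added after the values were seen, 10 of 24 forebrain transcription factors belonged, Neurod6 (2.73 CPM), Bcl11b (2.22 CPM) and Bhlhe22 (1.86 CPM) among them. Each of these 3 had at most 8 counts in any other library. Of 15 transcription factors of midbrain, hindbrain and spinal cord, 0 belonged, and of 27 Hox genes, 0. Many Hox genes are expressed by this line itself, such as Hoxd9 at 103 CPM in control 3 and up to 158 CPM elsewhere. Cortical neuropeptides and calcium-binding proteins gave 8 of 14, with Sst (somatostatin) at 3.35 CPM, Cck at 1.81 CPM and Npy at 1.55 CPM in control 3.

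Glial genes stood beside the neuronal ones. Of 9 astrocyte markers 4 belonged: the glutamate transporter genes Slc1a2 and Slc1a3, Aldoc and the intermediate filament gene Gfap, at 7.62, 4.28, 8.22 and 2.66 CPM in control 3. Outside the set, Aldh1l1, Gja1, Sox9 and S100b were not above the highest other library, and Aqp4 had 0.842 CPM in control 3. From the added list of radial glia and glial progenitors, 11 of 18 belonged. Fabp7, the lipid-binding protein of radial glia, had 10.8 CPM in control 3, against 0, 0 and 0.0949 CPM in miR-423-5p 1, 2 and 3 and 0.0620 and 0.0578 CPM in controls 1 and 2. Ptprz1 and Ncan, a phosphatase and a proteoglycan of brain matrix, had 12.5 and 10.4 CPM. Other genes of this list stayed outside the set. Nes had 132 CPM in control 3 and up to 142 CPM elsewhere, and Pdgfra was likewise not above the highest other library. Sox2, Pax6, Hes5 and Olig2 had 0.160 to 0.726 CPM in control 3. Cspg5 had 5.21 CPM there and up to 1.86 CPM elsewhere, short of the ratio. Oligodendrocytes were thinly represented, with Mbp at 4.98 CPM and Olig1 at 1.16 CPM the only 2 of 10.

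Transcripts of liver-secreted plasma proteins formed another, smaller group, again on a list added after the values were seen. It held 8 of 20: Trf, Alb, Gc, Hp, Ambp, Mup7, Mup3 and Mup22. Albumin (Alb) had 12.1 CPM in control 3 and 0 counts in the other 5 libraries, at least 255-fold higher. Gc, the vitamin D carrier, had 8.54 CPM and 0 counts elsewhere. Transferrin (Trf), which brain glia also make, had 17.5 CPM in control 3, against 0, 0 and 0.190 CPM in miR-423-5p 1, 2 and 3 and 0.124 and 0.462 CPM in controls 1 and 2. Of the listed genes outside the set, Hpx had 11.6 CPM in control 3 and up to 3.24 CPM elsewhere, short of the ratio. Apob and Rbp4 had 1.71 and 1.02 CPM in control 3. The others were below 1 CPM there, with Apoa1, Ttr and Fgb at 0.116 to 0.276 CPM. The Mup genes are near-identical copies, so their separate values are uncertain.

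Scattered genes of other lists entered too. The simple keratins Krt8 and Krt18, a pair found in epithelia, had 6.81 and 6.95 CPM in control 3, while the epithelial cadherin gene Cdh1 had 0.218 CPM. The calcium release channel gene Ryr2, used in heart and in neurons, had 1.63 CPM, and Reln, listed for lymphatic endothelium and also secreted by neurons, had 7.22 CPM. The Y-linked genes Eif2s3y and Ddx3y had 1.67 and 1.39 CPM in control 3. The 5 listed Y-linked genes summed to 4.21 CPM in control 3, against 0.107 to 1.14 CPM in the other 5 libraries.

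**Figure D3:**
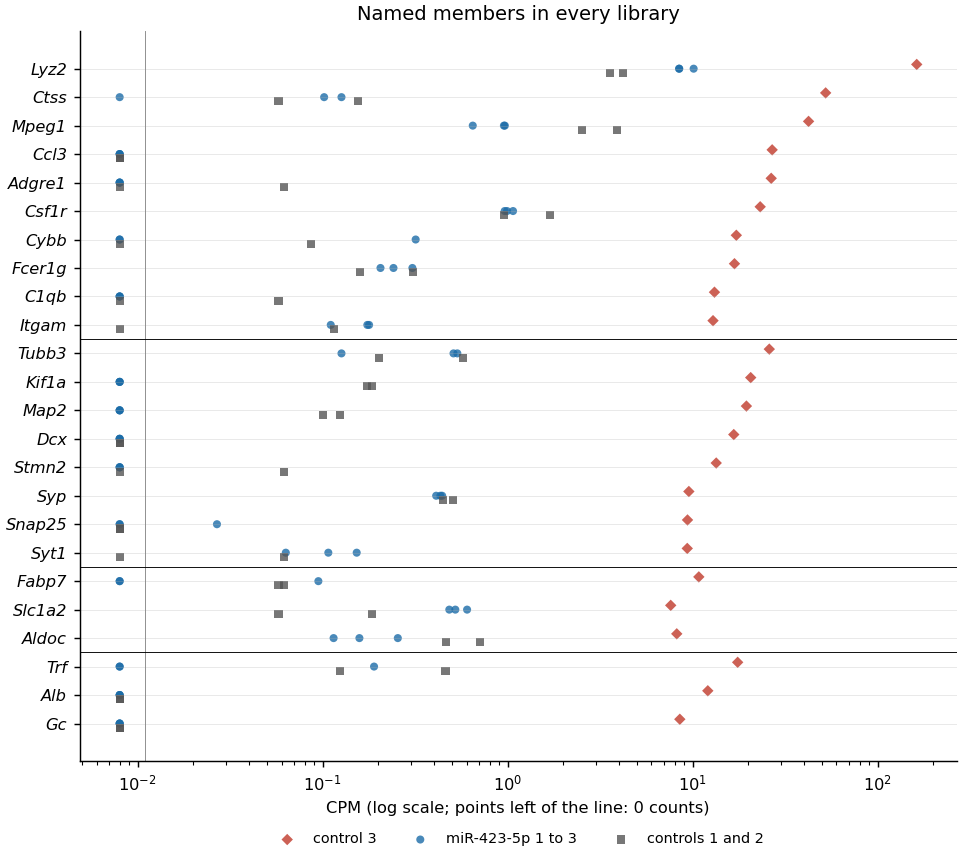
Each row is a named gene and each point a library, with CPM on a log scale, for control 3 (red diamonds), the 3 miR-423-5p libraries (blue circles) and controls 1 and 2 (grey squares). From top to bottom, horizontal lines separate macrophage genes, neuronal genes, glial genes and plasma protein genes, and points left of the vertical line had 0 counts.

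Reactome and KEGG terms deposited with the counts named both neural and phagocyte functions. Of 325 genes of the set with a Reactome term, 16.6% carried Neuronal System and 14.2% Neutrophil degranulation, against 3.87% and 5.78% of annotated genes of the table. By KEGG, 8.98% carried Phagosome and 8.20% Glutamatergic synapse, against 2.26% and 1.62%. The gene ontology term dendrite stood on 8.38% of genes with a term in the set and on 1.72% of annotated genes. These shares are descriptions of a set chosen from the counts.

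A further property not used by the rule was gene structure. Protein-coding genes made up 96.1% of the set and 87.8% of all genes with 1 CPM or more in control 3. The genomic span of a gene had a median of 36.7 kb in the set and 20.3 kb in the other genes with 1 CPM or more there. The genes lay on all autosomes and on X, with 2 on Y.

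**Figure D4:**
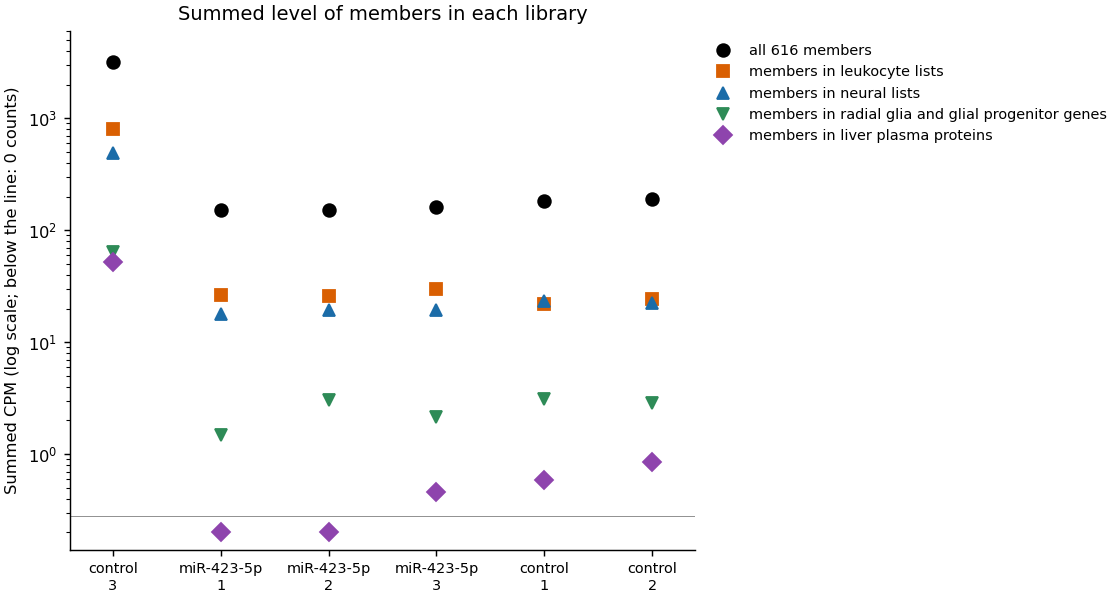
Points give summed CPM on a log scale in each library, with control 3 at the left, for all 616 genes and for those on leukocyte, neural, radial glia and plasma protein lists. Control 3 is highest in each series, and the leukocyte and neural sums of the other 5 libraries lie between 17.7 and 29.8 CPM.

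Genes of the set on leukocyte lists summed to 806 CPM in control 3, against 26.2, 25.8 and 29.8 CPM in miR-423-5p 1, 2 and 3 and 21.9 and 24.6 CPM in controls 1 and 2. Those on neural lists summed to 492 CPM in control 3, against 17.7, 19.4 and 19.4 CPM in the miR-423-5p libraries and 23.3 and 22.4 CPM in controls 1 and 2. The rule itself keeps these sums low outside control 3. Plasma protein genes summed to 51.9 CPM in control 3, to 0 in miR-423-5p 1 and 2 and to 0.459 to 0.852 CPM in miR-423-5p 3 and controls 1 and 2.

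The study itself set miR-423-5p cells against control cells to learn which genes the microRNA changes in endothelial cells. Control 3 is 1 of its 3 control libraries, so the set enters this comparison through the rule. In edgeR's quasi-likelihood fit of all 6 libraries, 233 of the 616 genes passed the filter on low counts and 26 (11.2%) were called at an adjusted p under 0.05 (Benjamini-Hochberg over 18103 genes), all of them lower in the miR-423-5p libraries. Over all genes tested 16.3% were called, 9.09% higher and 7.21% lower. The median log2 fold change of miR-423-5p over control was -2.45 in the 233 genes and -0.02 in all genes tested. Nothing about the microRNA is read from these, since the values of control 3 chose the genes.

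With control 3 left out, the 2 remaining control libraries were set against the 3 miR-423-5p libraries. In that fit 237 genes of the set were tested and 16 were called, 6 higher and 10 lower in the miR-423-5p libraries, which is 6.75% of those tested. Over all 18599 genes tested 10.9% were called, 6.18% higher and 4.67% lower. The median log2 fold change was -0.30 in the 237 genes and -0.01 in all genes. A gene passes the filter when 2 libraries reach 0.144 CPM. Of the 16, 9 did so in the lower group as well, 5 of them higher and 4 lower in the miR-423-5p libraries. The other 7 passed only through the group where they were high, and their values are given without a test. Of the 26 genes called with all libraries, 10 were called here too, and 6 were called here alone. These 5 libraries entered the rule as its ceiling, so the tests are not fully independent of it.

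Lyz2 changed direction between the fits. Without control 3 it was higher in the miR-423-5p libraries, with 8.46, 8.48 and 10.1 CPM, against 4.20 and 3.57 CPM in controls 1 and 2 (log2 fold change 1.37 ± 0.18 SE, adjusted p = 0.00672 by edgeR's quasi-likelihood test). With all 6 libraries its log2 fold change was -2.49 ± 1.32 (SE) and the adjusted p 0.234. The 4 others of the 5 that were higher were Tubb2b, a beta tubulin, the kinase gene Camk2a, Plek and Reln. Il1a, the cytokine interleukin-1 alpha, is 1 of the 7 genes counted mainly in 1 group, with 0.161, 0.268 and 0.364 CPM in the miR-423-5p libraries and 0 counts in controls 1 and 2. The 6 higher genes were picked by this same contrast, so the order of their libraries adds no support.

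Of the 10 genes lower in the miR-423-5p libraries without control 3, L1cam, Apc2, Kif21b and Mpeg1 passed the filter in both groups. The neural adhesion gene L1cam had 0.403, 0.306 and 0.443 CPM in miR-423-5p 1, 2 and 3, against 2.00 and 1.91 CPM in controls 1 and 2 (log2 fold change -2.19 ± 0.30 SE, adjusted p = 0.00727 by edgeR without control 3). The place of control 3 above these libraries was set by the rule. Mpeg1, a macrophage gene, was lower as well (log2 fold change -1.75 ± 0.29 SE, adjusted p = 0.0145 by edgeR without control 3), while Lyz2, another, was higher.

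The 6 others were counted mainly in controls. The microtubule kinase gene Dclk1 had 0, 0 and 0.0316 CPM in miR-423-5p 1, 2 and 3, against 1.07 and 1.13 CPM in controls 1 and 2. Meg3, an imprinted noncoding RNA, had 0, 0 and 0.190 CPM in the miR-423-5p libraries, against 3.87 and 5.17 CPM in controls 1 and 2. The remaining 4 were Cers6, a ceramide synthase gene, the interleukin-1 receptor antagonist gene Il1rn, Pak6 and Slc22a17. By mean CPM over libraries, 311 of the 616 genes were higher in controls 1 and 2 and 201 in the miR-423-5p libraries, and 104 had 0 counts in all 5. CPM scales by total counts alone. On that scaling the median log2 fold change over all genes tested without control 3 was -0.16, against -0.01 with TMM. The same split was not counted over all genes, so it is not read as a trait of the set. The macrophage list as a whole, 20 genes with Cd68 the highest, summed to 894, 801 and 1022 CPM in the miR-423-5p libraries, to 717 and 694 CPM in controls 1 and 2 and to 1260 CPM in control 3. The neuron list summed to 130, 158 and 128 CPM in the miR-423-5p libraries, to 61.4 and 57.6 CPM in controls 1 and 2 and to 206 CPM in control 3. Outside control 3 most of it was Nefl, which is not in the set: without this gene the list summed to 15.8, 15.98 and 14.7 CPM in the miR-423-5p libraries, to 14.9 CPM each in controls 1 and 2 and to 165 CPM in control 3. The part of control 3 in the calls made with all 6 libraries was not tested further.

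**Figure D5:**
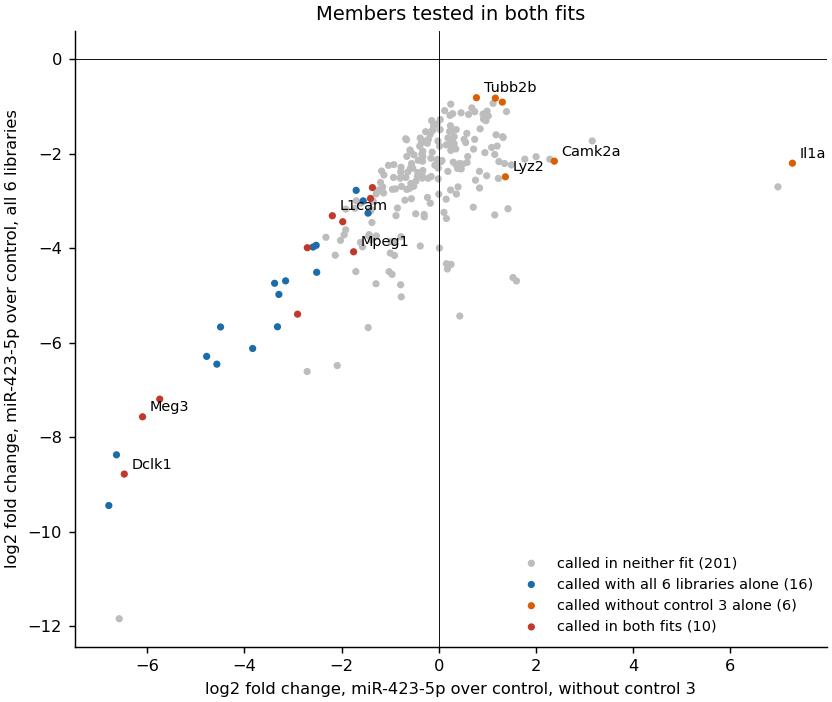
Each point is 1 of the 233 genes tested in both fits, with the log2 fold change of miR-423-5p over control without control 3 on the horizontal axis and with all 6 libraries on the vertical axis. Every point lies below 0 on the vertical axis, while on the horizontal axis points lie on both sides of 0; the fits share 5 libraries.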

How the data were processed

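Polyadenylated RNA of bEnd.3 cells was sequenced as 150-base read pairs after a dUTP, strand-marking preparation, per the labels' protocols. For each of 30768 genes, the deposited table gives a raw count and an FPKM value in 6 libraries, per the file headers, beside annotation terms. The submitters' processing notes list GRCm38 as the build and, without saying what each was used for, edgeR, DESeq2, StringTie 2.1.6, HISAT2 2.2.1 and Cutadapt 1.9. How reads were counted, on which strand and against which annotation is not given in the sources used here. Antisense, overlapping and near-identical genes are therefore uncertain.

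CPM is the count over the column sum, times 1e6. The 616 genes were found as their rule states. The genes and the first 56 lists of cell types and functions were chosen with earlier results of these data known, and 8 further lists after the values were seen. Named genes were the 20 highest by CPM and the 10 highest by FPKM in control 3, up to 6 genes of the set and 3 others per list, the 6 highest with 0 counts elsewhere, the 3 on each side of each limit, and up to 5 by p per fit. Any other gene was named after its values were seen, and a few genes are not reported here. Folds against libraries at 0 allow 3 counts per library.

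Libraries of miR-423-5p cells were set against controls with edgeR 4.0.16 in R 4.3.3 (filterByExpr, TMM, glmQLFit and glmQLFTest on the group alone, Benjamini-Hochberg over all genes tested, threshold 0.05), with and without control 3. An SE is the log2 fold change over the square root of F. Alternatives were DESeq2 1.42.0, other scalings and filters, a replicate-number block, each library left out in turn, and limma 3.58.1 on log2(FPKM + 1). Same-numbered libraries of the groups deviated together with correlations of 0.0749, -0.0264 and 0.0498, so the numbers were not taken to pair them. Pairs of libraries differed by more than sampling noise, with a chi-square per degree of freedom of 18.2 or more. Promoters are those of RefSeq on GRCm38.p6, matched by Entrez identifier or else by symbol, on the same chromosome and strand. Where a gene had several, the start site nearest its deposited start was taken.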

Additional observations from a re-analysis of the deposited data

How the results depend on the processing

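The set kept its size within 1.5 times under 11 of 14 alternatives, with 617 to 681 genes when each of the other libraries was left out of the ceiling. It held 396 and 159 genes at a minimum of 2 and 5 CPM and 211 when chosen on the deposited FPKM, 199 of them shared. On FPKM the listed genes fell to 86 from 176 and the glutamate and GABA list to 2 from 9, while macrophage and neuron lists held 11 and 10. With a ratio of 8, the most genes that any other library had to itself was 3, against 7. The 26 genes called between miR-423-5p and control became 91 with DESeq2, 6 with no filter and 0 with limma on log2(FPKM + 1), where 1 of 199 had an unadjusted p under 0.05. Leaving out each library in turn gave 1 to 16 (13 and 9 without control 1 and 2, 16 without control 3, and 1, 9 and 3 without miR-423-5p 1, 2 and 3). Without control 3, the 16 calls became 32 with DESeq2. The replicate block gave 30 in place of 26, and 31 in place of 16 without control 3, where miR-423-5p 3 formed a block of its own. The replicate numbers are not shown to pair the libraries. The causes of these moves were not tested, beyond fewer genes passing the higher limits. Counts under 3 per library limit the values of low genes.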

Other observations

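Some genes were high in control 3 together with 1 other library and so fell outside the set. Among the 15 pairs of libraries, 45 genes had 1 CPM or more in both control 3 and miR-423-5p 3 and at least 4 times the highest CPM of the other 4 libraries. Most encode proteins of skeletal muscle fibres. Myh4, a fast myosin heavy chain gene, had 119 CPM in control 3 and 140 CPM in miR-423-5p 3, against 0 counts in miR-423-5p 1 and 2 and in controls 1 and 2. Ckm, muscle creatine kinase, had 47.3 CPM in control 3 and 59.8 CPM in miR-423-5p 3, against 0.107 and 0 CPM in miR-423-5p 1 and 2 and 0.0465 and 0 CPM in controls 1 and 2. The sarcomere genes Acta1, Ttn, Tnnt3, Myl1 and Actn3 were among the others. The myogenic factor genes Myod1 and Myog had at most 0.0581 CPM in control 3.

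Another 7 genes were high in controls 1 and 2 together. They were the cartilage matrix genes Col2a1, Acan, Col9a2 and Epyc, with Ogn, Gas1 and Susd5. Col2a1, the collagen of cartilage, had 1.58, 1.43 and 24.6 CPM in miR-423-5p 1, 2 and 3, against 189 and 268 CPM in controls 1 and 2 and 21.1 CPM in control 3. Control 3 and miR-423-5p 2 shared 2 genes (Mfsd4a and Gm49380), and the other 12 pairs shared 0. These pairs were chosen after the values were seen, and no test was made of them.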
